A study of Mus musculus with 9 samples.

Results

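The 8 E2f genes of the mouse, E2f1 to E2f8, and Mybl2, the gene of the transcription factor B-MYB, were followed across sorted cells of bile duct organoids. The 9 genes were taken by name from the deposited gene counts, which list 32137 genes, and all 9 passed the filter on low counts that left 17011 genes for testing. The organoids, cultures of biliary epithelium, came from 1 male mouse of mixed background with the genotype Axin2CreERT2+/-; R26-LSL-tdTom+/-, so the libraries are repeats of 1 line and not of several animals. CreERT2 is expressed from Axin2, a Wnt target gene, and 4-hydroxytamoxifen (4-OHT) lets it switch on the red protein tdTomato permanently. All 9 cultures were differentiated for 11 days and had 3 uM dexamethasone and 500 nM 4-OHT in the last 24 h. The 3 groups differ in R-spondin 1 (Rspo1), which is secreted and strengthens Wnt signals, and in the sort. Untreated tdTomato-negative cells had no Rspo1. The tdTomato-negative and tdTomato-positive cells of the other groups were sorted from cultures that also had Rspo1 at 100 ng/ml. Each group has 1 library from passage 5, 1 from passage 6 and 1 from passage 10, and p-values measure the spread between these libraries. In the main test of groups this spread includes differences between passages, and an alternative took passage as a block.

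E2F proteins bind DNA in the promoters of genes for DNA replication and the cell cycle. E2F1, E2F2 and E2F3 activate these genes once cyclin-dependent kinases have removed the retinoblastoma protein from them. E2F4 and E2F5 act with the pocket proteins p107 and p130 to keep the genes off in resting cells, and E2F6 represses without pocket proteins. E2F7 and E2F8, which need no DP partner, are made late in the cycle from E2F-driven genes and shut them down again. B-MYB joins the MuvB core in S phase and activates genes of G2 and mitosis. In the liver, E2F7 and E2F8 are known for their part in the polyploidy of hepatocytes.

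Total counts ran from 23423979 to 37351448 per library. The label of the Rspo1 cultures was checked with Axin2. Levels of 1 gene are given in CPM, its counts per library scaled by the library's total. Axin2 had 3.01 ± 2.56 (SD, n = 3) in untreated cells, 88.7 ± 40.6 (SD, n = 3) in Rspo1 tdTomato-negative cells and 106 ± 42.3 (SD, n = 3) in Rspo1 tdTomato-positive cells. Axin2 thus followed Rspo1, and its mRNA did not separate the sorted fractions (difference of 0.26 on the log2 scale, SE 0.50, adjusted p = 0.733 in edgeR's quasi-likelihood test). All 8 biliary markers, such as Krt7, Krt19, Epcam and Sox9, were present. They summed to 6689 to 8442 CPM in untreated, 6642 to 8711 CPM in Rspo1 tdTomato-negative and 5709 to 5823 CPM in Rspo1 tdTomato-positive cells. In tdTomato-positive against untreated cells 2 of the 8 were higher, Cftr and Sox9, and 1 was lower, Krt19 (-1.06, SE 0.20, edgeR adjusted p = 0.0127). The part of this in the results was not tested. Fibroblast and stellate cell markers, of which the counts list 6 of 8 by name, summed to 0.201 to 1.01 CPM. Endothelial markers, of which 5 of 6 are listed, summed to 0.288 to 0.812 CPM, with Cdh5 at 0 in every library. The leukocyte markers, of which 5 of 7 are listed, summed to 45.6 to 68.1 CPM. Nearly all of this was Csf1r (group means of 42.7 to 47.5 CPM) and Cd68 (7.68 to 13.2 CPM). Ptprc, Cd3e and Lyz2 had group means of at most 0.0718 CPM. The 8 hepatocyte markers summed to 164 to 545 CPM, most of it Ttr (group means of 250 to 407 CPM). Alb had 6.29 to 12.9 CPM and Apoa1 at most 0.942 CPM. Serpina1c, Cyp2e1, Cyp3a11, Cps1 and Tat had group means of at most 0.0869 CPM.

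By role, the atypical repressors, Mybl2 and the activators differed between groups, whereas E2f4, E2f5 and E2f6 did not pass the test. In Rspo1 tdTomato-positive against untreated cells, 6 of the 9 genes were higher (E2f1, E2f2, E2f3, E2f7, E2f8 and Mybl2) and 0 were lower, at an adjusted p under 0.05. This is 66.7% of the genes, where 3.07% of all genes tested were higher and 2.13% lower. In Rspo1 tdTomato-positive against Rspo1 tdTomato-negative cells, 5 of 9 were higher (E2f2, E2f3, E2f7, E2f8 and Mybl2), and 0 lower, where 14.6% of all genes tested were higher and 9.78% lower. In Rspo1 tdTomato-negative against untreated cells, 4 of 9 were higher (E2f1, E2f2, E2f7 and Mybl2), and 0 lower, where 8% of all genes tested were higher and 13.9% lower. With passage as a block, 6 of 9 were called in each comparison. The block added E2f1 between the Rspo1 fractions, and E2f8 as higher and E2f3 as lower in tdTomato-negative against untreated cells. Of all genes tested, the block called 2247, 6624 and 6039 in the same order of comparisons. The comparisons share libraries pairwise and are not independent of each other. A larger share of cycling cells and more mRNA per cell cannot be told apart in bulk RNA.

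**Figure D1:**
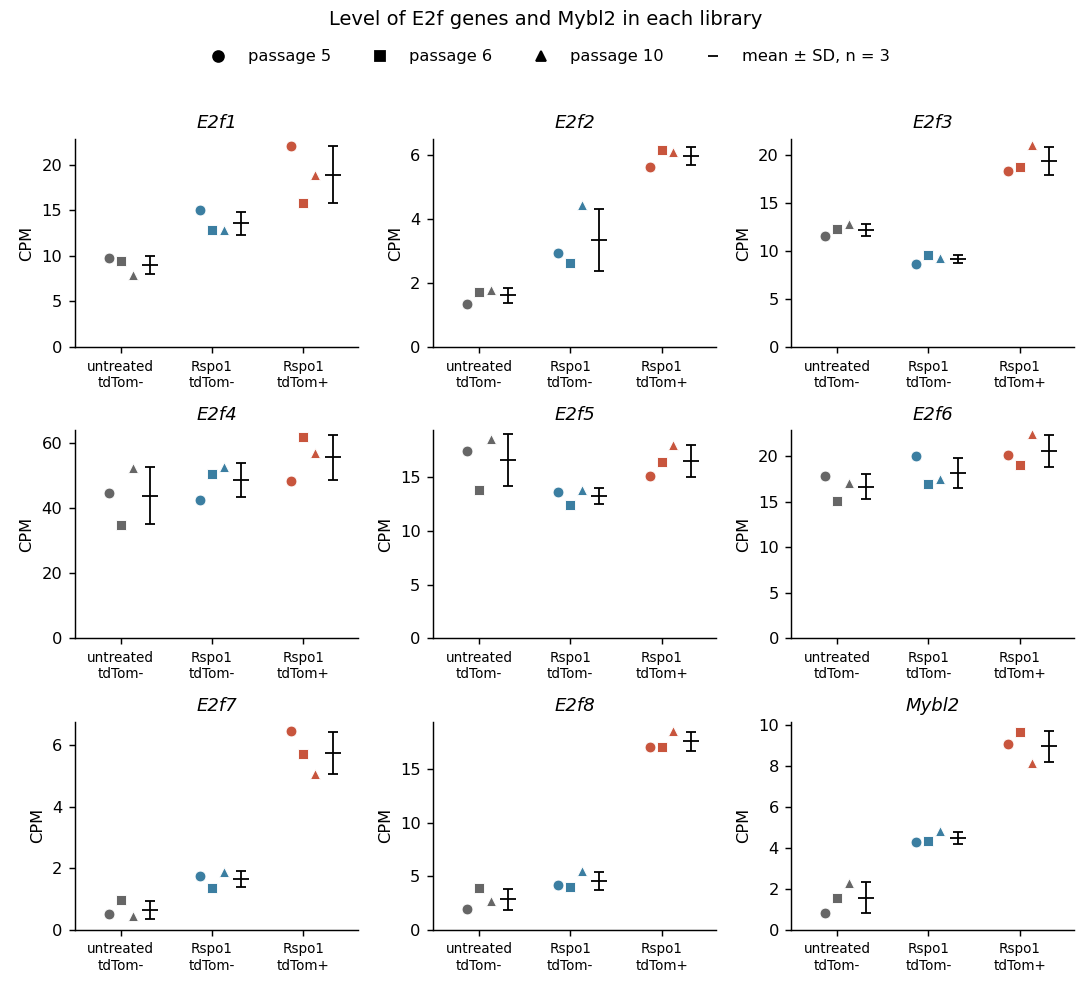
Level of each of the 9 genes in the 9 libraries, in CPM (vertical axes start at 0), by group (colour) and passage (circle, square and triangle for 5, 6 and 10); the bar at the right of each group is the mean ± SD of 3 libraries. E2f7, E2f8 and Mybl2 stand higher from group to group, E2f3 is lowest in Rspo1 tdTomato-negative cells, and the libraries of E2f4 overlap between all groups.

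Promoters were read as the 250 bases before the RefSeq transcription start in build GRCm38.p6. Printed are those of E2f7, E2f8 and Mybl2, which moved most, and that of the first start of E2f3. In tdTomato-positive against untreated cells E2f3 rose by 0.67 on the log2 scale, less than E2f1 (1.07) and E2f2 (1.88), whose windows are not printed. Promoters are shown because E2F sites and CHR elements, the sites of MuvB complexes, are the known routes by which E2F and B-MYB act on genes of the cycle. Capitals mark matches, on either strand, to the E2F forms TTTCCCGC, TTTGGCGC, TTTCGCGC and TTTGCCGC, to the shorter core TCCCGC, which the first of these contains, and to the CHR forms TTTGAA and TTCGAA.
E2f3: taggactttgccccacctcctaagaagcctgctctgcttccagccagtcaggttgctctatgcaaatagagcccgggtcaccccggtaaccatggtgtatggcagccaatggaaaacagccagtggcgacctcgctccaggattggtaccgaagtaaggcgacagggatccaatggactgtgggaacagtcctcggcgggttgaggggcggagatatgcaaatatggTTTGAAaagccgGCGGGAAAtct
E2f7: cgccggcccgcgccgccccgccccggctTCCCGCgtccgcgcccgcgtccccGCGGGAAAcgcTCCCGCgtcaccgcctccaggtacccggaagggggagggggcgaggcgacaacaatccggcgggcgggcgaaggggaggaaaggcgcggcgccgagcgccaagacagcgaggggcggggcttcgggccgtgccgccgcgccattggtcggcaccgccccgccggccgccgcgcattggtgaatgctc
E2f8: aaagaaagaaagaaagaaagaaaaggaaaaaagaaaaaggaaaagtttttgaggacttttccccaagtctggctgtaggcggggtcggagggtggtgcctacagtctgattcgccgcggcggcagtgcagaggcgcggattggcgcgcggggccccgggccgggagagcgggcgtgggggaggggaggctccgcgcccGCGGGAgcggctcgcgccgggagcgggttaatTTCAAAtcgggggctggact
Mybl2: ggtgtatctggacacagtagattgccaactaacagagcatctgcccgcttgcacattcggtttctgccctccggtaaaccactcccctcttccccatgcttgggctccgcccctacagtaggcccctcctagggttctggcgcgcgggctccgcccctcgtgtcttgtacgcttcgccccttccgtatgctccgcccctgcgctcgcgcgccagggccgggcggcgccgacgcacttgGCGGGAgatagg
The E2f3 window, that of the first of its 2 RefSeq starts (chr13:29986064-29986313, minus strand) held TTTCCCGC on the opposite strand at 11 to 4 bases before the start and TTTGAA at 23 to 18. The E2f7 window (chr10:110745189-110745438, plus strand) held TTTCCCGC on the opposite strand at 198 to 191 bases before the start, and the core at 222 to 217 and 187 to 182. The E2f8 window (chr7:48881597-48881846, minus strand) held the core at 52 to 47 and TTTGAA at 20 to 15, both on the opposite strand. The Mybl2 window (chr2:163054385-163054634, plus strand) held the core at 12 to 7. In the windows not shown, E2f6 held the core at 53 to 48, the second start of E2f3 the core at 78 to 73 and the second start of E2f2 TTTGAA at 31 to 26. E2f1, whose window lies inside the annotated gene, and the first start of E2f2 had no match. Among the windows of these genes only the printed one of E2f3 held both an 8-letter E2F form and a CHR form. The printed windows are thus not a random choice. Of 32851 such windows in the RefSeq table, 1.86% held an 8-letter E2F form, 16.9% the core and 17.1% a CHR form. These shares are over windows of any GC content. The printed windows of E2f3, E2f7, E2f8 and Mybl2 had GC contents of 55.6%, 79.2%, 62.4% and 65.6%. Of the 9 genes, 7 had a window, not E2f4 and E2f5. These matches describe letters and not bound sites.

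E2f8, an atypical repressor (ENSMUSG00000046179, GRCm38 chromosome 7, 48866429 to 48881596, minus strand), was at 1.94, 3.88 and 2.68 CPM in untreated cells of passages 5, 6 and 10, at 4.15, 3.99 and 5.50 CPM in Rspo1 tdTomato-negative cells, and at 17.1, 17.1 and 18.6 CPM in Rspo1 tdTomato-positive cells. All 3 tdTomato-positive libraries of this gene lay far above the other 6. Against untreated cells the log2 fold change was 2.63 (SE 0.26, edgeR adjusted p = 0.000687), and the ratio within a passage was 8.81, 4.4 and 6.94. Against Rspo1 tdTomato-negative cells it was 1.95 (SE 0.25, edgeR adjusted p = 0.00181). The tdTomato-negative libraries were also all above the untreated ones, at passage 6 by a ratio of 1.03. This difference of 0.68 (SE 0.26) had an adjusted p of 0.0796 by edgeR, or 0.0315 with passage as a block (range over 14 alternatives 0.0184 to 0.225). Without the untreated library of passage 6 it was 0.98 (adjusted p = 0.0184 by edgeR). The annotation places Gm2788 on the other strand over 11.2% of the exon bases of E2f8. Gm2788 had 0.565 ± 0.172, 0.874 ± 0.171 and 2.66 ± 0.196 CPM (SD, n = 3) in the same order of groups. Reads of this overlap cannot be told apart because the strand setting of the counting is not given in the sources used here.

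E2f7, the other atypical repressor (ENSMUSG00000020185, GRCm38 chromosome 10, 110745439 to 110787384, plus strand), had few reads in untreated cells, with counts of 17, 29 and 15 at passages 5, 6 and 10. This corresponds to 0.523, 0.970 and 0.432 CPM, against 1.73, 1.36 and 1.86 CPM in Rspo1 tdTomato-negative cells and 6.45, 5.70 and 5.07 CPM in Rspo1 tdTomato-positive cells. The 3 groups did not overlap. The log2 fold change was 3.16 (SE 0.33, edgeR adjusted p = 0.000867) in tdTomato-positive against untreated cells, the largest of the 9 genes, and 1.79 (SE 0.31, adjusted p = 0.00404) against Rspo1 tdTomato-negative cells. In tdTomato-negative against untreated cells it was 1.37 (SE 0.33, edgeR adjusted p = 0.0162). That last call was lost without the untreated library of passage 5 (1.25, adjusted p = 0.0583) or without the Rspo1 tdTomato-negative library of passage 10 (1.31, adjusted p = 0.0546; range over 14 alternatives 0.000882 to 0.0589).

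Mybl2 (ENSMUSG00000017861, GRCm38 chromosome 2, 163054687 to 163084688, plus strand) was at 0.800, 1.57 and 2.30 CPM in untreated cells, at 4.31, 4.32 and 4.83 CPM in Rspo1 tdTomato-negative cells and at 9.09, 9.65 and 8.14 CPM in Rspo1 tdTomato-positive cells of passages 5, 6 and 10. The groups did not overlap, and by the ratio of the highest to the lowest library the untreated cells varied most. In untreated cells, the passage 10 library had 2.88 times the Mybl2 level of passage 5, and Axin2 had 5.96 CPM there against 1.32 CPM at passage 5. Each is a single library, and their relation was not tested. Mybl2 was higher in tdTomato-negative than in untreated cells (log2 fold change 1.52, SE 0.32, edgeR adjusted p = 0.00943) and was called under all 14 alternatives tried. Against untreated cells the tdTomato-positive difference was 2.52 (SE 0.33, edgeR adjusted p = 0.00176), with ratios of 11.4, 6.14 and 3.54 at passages 5, 6 and 10. From one Rspo1 fraction to the other the difference was 1.0 (SE 0.31, edgeR adjusted p = 0.0381), with ratios of 2.11, 2.23 and 1.69. Leaving out any 1 of the 6 libraries ended this call (adjusted p 0.0708 to 0.109; range over 14 alternatives 0.00698 to 0.109). The transcript has a stretch of 742 bases that is 99.7% identical in the processed pseudogene Gm3320, and whether reads of this stretch were counted is not given in the sources used here.

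**Figure D2:**
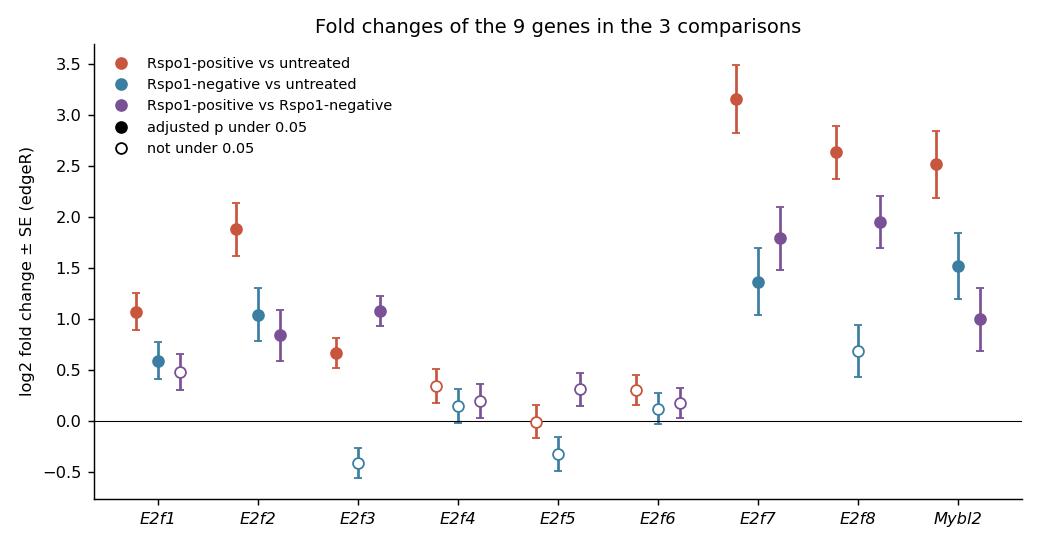
Log2 fold change of each gene (points) with its SE (bars) from edgeR in the 3 comparisons between groups (colours); filled points have an adjusted p under 0.05 and open points do not. E2f3 lies above 0 in tdTomato-positive cells and at -0.41 in Rspo1 tdTomato-negative against untreated cells, and E2f4, E2f5 and E2f6 are open in all 3 comparisons.

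Among the activators, E2f2 (ENSMUSG00000018983, GRCm38 chromosome 4, 136172394 to 136196057, plus strand) was at 1.35, 1.71 and 1.78 CPM in untreated cells, at 2.93, 2.63 and 4.45 CPM in Rspo1 tdTomato-negative cells and at 5.64, 6.17 and 6.10 CPM in Rspo1 tdTomato-positive cells of passages 5, 6 and 10. Its groups did not overlap. The log2 fold change was 1.88 (SE 0.26, adjusted p = 0.0025) in tdTomato-positive against untreated cells, 1.04 (SE 0.26, adjusted p = 0.0184) in tdTomato-negative against untreated cells and 0.84 (SE 0.25, adjusted p = 0.0341) between the Rspo1 fractions, all by edgeR. The second call was lost without the untreated library of passage 5 (adjusted p = 0.0647) or the Rspo1 tdTomato-negative library of passage 10 (adjusted p = 0.0633; range over 14 alternatives 0.00118 to 0.0647). The third was lost without any 1 of 5 libraries (adjusted p 0.0801 to 0.114; range over 14 alternatives 0.00834 to 0.114) and held without the Rspo1 tdTomato-negative library of passage 10.

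E2f1 (ENSMUSG00000027490, GRCm38 chromosome 2, 154559407 to 154569892, minus strand) was at 9.76, 9.40 and 7.86 CPM in untreated cells, at 15.1, 12.8 and 12.8 CPM in Rspo1 tdTomato-negative cells and at 22.1, 15.8 and 18.9 CPM in Rspo1 tdTomato-positive cells. The 3 groups stood in this order without overlap. The rise in tdTomato-positive against untreated cells was 1.07 (SE 0.18, edgeR adjusted p = 0.0061) on the log2 scale. The step from tdTomato-negative to tdTomato-positive cells was 0.48 (SE 0.18, edgeR adjusted p = 0.0714; 0.0234 with passage as a block, range over 14 alternatives 0.00505 to 0.263). The step from untreated to tdTomato-negative cells was 0.59 (SE 0.18, edgeR adjusted p = 0.0379), and it was 0.26 (adjusted p = 0.451) once each library was corrected for GC content and transcript length. The same correction put the step between the Rspo1 fractions at 0.78 (adjusted p = 0.0385 by edgeR). Of the 6 fits with 1 library left out, 1 kept the call against untreated cells, that without the Rspo1 tdTomato-negative library of passage 6, and the other 5 had adjusted p-values of 0.0533 to 0.122 (range over 14 alternatives 0.00807 to 0.451).

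E2f3 (ENSMUSG00000016477, GRCm38 chromosome 13, 29906575 to 29986063, minus strand) had its lowest level in Rspo1 tdTomato-negative cells, in contrast to E2f1 and E2f2. It was at 11.5, 12.3 and 12.8 CPM in untreated cells, at 8.68, 9.59 and 9.27 CPM in Rspo1 tdTomato-negative cells and at 18.4, 18.7 and 21.1 CPM in Rspo1 tdTomato-positive cells of passages 5, 6 and 10. No library of 1 group overlapped another group. Of the Rspo1 fractions, E2f3 was higher in tdTomato-positive cells (log2 fold change 1.08, SE 0.15, edgeR adjusted p = 0.00196), at ratios of 2.12, 1.95 and 2.27, and was called under all 14 alternatives. The lower level in tdTomato-negative than in untreated cells was -0.41 (SE 0.15, edgeR adjusted p = 0.068; 0.0328 with passage as a block). Its value was -0.26 (adjusted p = 0.285) after the GC and length correction (range over 14 alternatives 0.0328 to 0.368). Against untreated cells tdTomato-positive cells were higher by 0.67 (SE 0.15, edgeR adjusted p = 0.0255). Of the 6 fits that leave out 1 library, that without the untreated library of passage 10 kept this call, and the others had adjusted p-values of 0.0546 to 0.115 (range over 14 alternatives 0.000133 to 0.115).

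The repressors E2f4, E2f5 and E2f6 had the smallest spread of the 9 genes over the libraries. E2f4 (ENSMUSG00000014859, GRCm38 chromosome 8, 105297663 to 105305370, plus strand) was at 44.7, 34.8 and 52.3 CPM in untreated cells, at 42.7, 50.7 and 52.6 CPM in Rspo1 tdTomato-negative cells and at 48.4, 61.9 and 56.9 CPM in Rspo1 tdTomato-positive cells. These libraries overlapped between all groups. The tdTomato-positive libraries differed from untreated ones by 0.34 on the log2 scale (SE 0.17, edgeR adjusted p = 0.334). Between the Rspo1 fractions E2f4 was called in 1 of 14 alternatives, block with GC and length correction (0.51, adjusted p = 0.0203; range 0.0203 to 0.737). E2f5 (ENSMUSG00000027552, GRCm38 chromosome 3, 14578641 to 14606309, plus strand) was at 13.8 to 18.5 CPM in untreated, 12.4 to 13.8 CPM in Rspo1 tdTomato-negative and 15 to 18 CPM in Rspo1 tdTomato-positive cells. All 3 tdTomato-negative libraries lay below the untreated ones, and the difference was -0.32 on the log2 scale (SE 0.16, edgeR adjusted p = 0.182). E2f6 (ENSMUSG00000057469, GRCm38 chromosome 12, 16810963 to 16839742, plus strand) was at 15.1 to 17.8, 16.9 to 20.01 and 19.0 to 22.4 CPM in the same order. Its tdTomato-positive libraries lay above all untreated ones, by 0.30 on the log2 scale (SE 0.15, edgeR adjusted p = 0.336). By the range of log2 CPM over the 9 libraries, E2f6 stood at percentile 9.87 of all genes tested, E2f5 at 10.2 and E2f4 at 28.3, against 97.8 for E2f7, 97.0 for Mybl2 and 95.7 for E2f8.

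Counted by libraries that do not overlap, 7 of 9 genes were higher in tdTomato-positive than in untreated cells, where 11.4% of all genes tested were. Also 7 of 9 were higher in tdTomato-positive than in Rspo1 tdTomato-negative cells, where 24.6% were. In tdTomato-negative against untreated cells 5 genes lay higher (16.4% of all genes tested) and 2 lower, E2f3 and E2f5 (20%). In the authors' deposited table, 6, 6 and 4 of the 9 genes had an adjusted p under 0.05 in tdTomato-positive against untreated, tdTomato-positive against tdTomato-negative and tdTomato-negative against untreated cells. The authors list 15807 genes per comparison, and the share of all of them that passed is not given here. In the authors' deposited table, E2f1 was among those called between the Rspo1 fractions, with a log2 fold change of 0.45 and an adjusted p of 0.015.

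Levels of different genes were compared by the deposited FPKM, reads scaled by transcript length and library size. E2f4 had the highest FPKM of the 9 genes in every group, with 21.7 ± 4.33 in untreated cells, 24.6 ± 2.17 in Rspo1 tdTomato-negative cells and 27.6 ± 3.49 in Rspo1 tdTomato-positive cells (SD, n = 3 each). E2f5 followed with 9.15 ± 1.35, 7.51 ± 0.491 and 9.12 ± 0.718 FPKM, and E2f7 was lowest with 0.115 ± 0.0516, 0.304 ± 0.0493 and 1.04 ± 0.135 FPKM. In untreated cells the order below E2f5 was E2f6, E2f1, E2f3, E2f8, Mybl2, E2f2 and E2f7, of which E2f8 overlapped Mybl2 and Mybl2 overlapped E2f2. In tdTomato-positive cells E2f1 (6.77 ± 1.13 FPKM) overlapped E2f6 (6.70 ± 0.475 FPKM), and E2f8 (4.70 ± 0.164 FPKM) stood above E2f3 (3.75 ± 0.231 FPKM), the reverse of their order in the other groups.

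The summed FPKM of the 8 E2f genes was 43.0 ± 5.58 in untreated cells, 47.2 ± 1.46 in Rspo1 tdTomato-negative cells and 60.9 ± 2.97 in Rspo1 tdTomato-positive cells (SD, n = 3 each). E2f4, E2f5 and E2f6 together made up 84.0 ± 3.27%, 80.8 ± 1.25% and 71.2 ± 3.08% of this sum. E2f1, E2f2 and E2f3 made up 13.9 ± 2.35%, 15.9 ± 1.26% and 19.4 ± 2.57%. E2f7 and E2f8 had shares of 1.39%, 3.26% and 1.65% in the untreated libraries of passages 5, 6 and 10, of 3.21%, 2.87% and 3.73% in the Rspo1 tdTomato-negative ones, and of 10.01%, 9.0% and 9.26% in the Rspo1 tdTomato-positive ones. The tdTomato-positive libraries thus carried the largest share of the atypical repressors in each passage. Each of these differences in share between tdTomato-positive and untreated cells had p = 0.1 in a two-sided exact permutation test, the smallest value that 3 against 3 libraries can give (adjusted p = 0.18 over 9 comparisons).

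**Figure D3:**
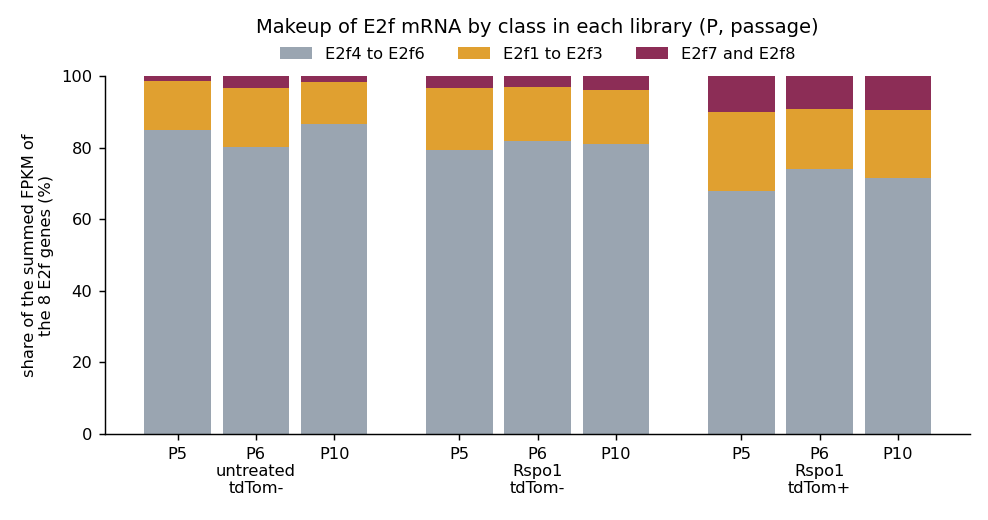
Share of the summed FPKM of the 8 E2f genes (percent, vertical axis) that falls to E2f4 to E2f6, E2f1 to E2f3, and E2f7 with E2f8, in each of the 9 libraries, ordered by group and passage. The top segment, E2f7 and E2f8, is 9.0% to 10.01% in the tdTomato-positive libraries and at most 3.73% in the other 6.

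In tdTomato-positive against untreated cells, 3.07% of all genes tested were higher and 2.13% lower. Among the partners of E2F and B-MYB, 4 of 13 genes tested were higher and 0 lower there (median log2 fold change 0.29, against -0.01 over all genes tested). They were Foxm1, a forkhead factor of G2 and mitosis (2.74, SE 0.36, edgeR adjusted p = 0.00187), Rbl1, which encodes p107 (1.67, SE 0.16, adjusted p = 0.000687), and the MYB family genes Myb (1.94, SE 0.49, adjusted p = 0.0481) and Mybl1 (1.37, SE 0.27, adjusted p = 0.0156). Without the untreated library of passage 5 or the tdTomato-positive library of passage 6, Mybl1 and Myb were no longer called and the count was 2 of 13; Myb was lost in 5 of the 6 fits with 1 library left out. Rbl1, at 6.50 to 7.32 CPM in untreated, 6.95 to 9.05 in Rspo1 tdTomato-negative and 21.2 to 23.1 in Rspo1 tdTomato-positive cells, was also higher between the Rspo1 fractions (1.5, SE 0.16, edgeR adjusted p = 0.0017). In that comparison 14.6% of all genes tested were higher and 9.78% lower. Of the 13 partners 7 were higher and 0 lower (median 0.91, against 0.03 over all genes tested), or 4 after the GC and length correction, with Mybl1 at 2.14 (SE 0.28, edgeR adjusted p = 0.00184) among them. Rb1, the retinoblastoma gene, was among the 7 (0.91, adjusted p = 0.00653), as was the MuvB subunit gene Lin54 (1.09, adjusted p = 0.00202). In tdTomato-negative against untreated cells 1 of 13 was higher, Foxm1 (1.21, SE 0.35, adjusted p = 0.0322 by edgeR), and 2 were lower, Rb1 and Lin54, at -0.94 (adjusted p = 0.00557) and -0.80 (adjusted p = 0.006). These shares were near those of all genes tested, of which 8% were higher and 13.9% lower. The block gave 6 in either direction there, and called 6039 of all 17011 genes tested, against 3724 in the main fit. Without the untreated library of passage 5 or 10, or the tdTomato-negative library of passage 6 or 10, Foxm1 was not called (adjusted p 0.0569 to 0.0971). The GC and length correction also ended this Foxm1 call (1.12, adjusted p = 0.0643) and the 4 calls of Rb1 and Lin54 (adjusted p 0.144 to 0.554 by edgeR).

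Of all genes tested, 3.07% were higher and 2.13% lower in tdTomato-positive against untreated cells. Of 15 genes that act on the pocket proteins or on E2F stability, 4 were higher and 1 lower there (median 0.19). The higher ones were Ccnf (2.25, SE 0.42, edgeR adjusted p = 0.0114) and Skp2 (1.03, SE 0.21, adjusted p = 0.0192), which encode substrate receptors of ubiquitin ligases, Cdkn2c, an inhibitor of CDK4 and CDK6 (1.71, SE 0.40, adjusted p = 0.0333), and Cdk2 (0.76, SE 0.18, adjusted p = 0.0333). The lower one was Cdkn2b, an inhibitor of CDK4 and CDK6, named after its values were seen (-0.55, SE 0.13, adjusted p = 0.0337). The count of 5 in either direction was 0 without the tdTomato-positive library of passage 6, 1 without the untreated library of passage 5, 2 without the tdTomato-positive library of passage 5 or 10, and 3 without the untreated library of passage 6. Between the Rspo1 fractions 2 were higher, Skp2 and Cdk6, and 2 lower, Cdkn1c and Ccnd3, shares near those of all genes tested, of which 14.6% were higher and 9.78% lower. The count of 4 varied (8 in either direction with passage as a block, 0 after the GC and length correction, and 2 without the Rspo1 tdTomato-negative library of passage 10). Of all 17011 genes tested, the block called 6624 there, against 4141 in the main fit. Cdkn1c, the gene of the CDK inhibitor p57, was at 4.10, 4.28 and 4.66 CPM in Rspo1 tdTomato-negative cells against 1.82, 1.75 and 1.57 CPM in tdTomato-positive cells (-1.34, SE 0.30, edgeR adjusted p = 0.0113; 0.0758 after the correction). Cdk4 and Cdkn1c were higher in tdTomato-negative than in untreated cells (0.49 and 0.94) and Cdk6 and Cdkn1b lower (-0.79 and -0.49), with adjusted p-values of 0.0145 to 0.0442 by edgeR, where 8% of all genes tested were higher and 13.9% lower. That count of 4 was 1 after the correction, 1 without the tdTomato-negative library of passage 5, 2 without the tdTomato-negative library of passage 6 or the untreated library of passage 10, and 0 without the tdTomato-negative library of passage 10.

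Of 25 E2F target genes of G1/S and DNA replication, 21 were higher and 0 lower in tdTomato-positive against untreated cells (median 1.56). In tdTomato-negative against untreated cells 15 were higher and 0 lower (median 0.84, against -0.02 over all genes tested). Of all genes tested, 3.07% were higher in the first comparison and 8% in the second. In the latter comparison 4 of 25 had log2 fold changes below 0, down to -0.30. There 2 of 25 lay lower in all 3 libraries without overlap, where 20% of all genes tested did. The leading genes in the first comparison were Uhrf1, which helps to maintain DNA methylation (2.5, SE 0.21, edgeR adjusted p = 0.000394), Dtl, a subunit of a ubiquitin ligase that removes Cdt1 (2.41, SE 0.25, adjusted p = 0.000763), the replication helicase gene Cdc45 (2.42, SE 0.28, adjusted p = 0.00131) and the flap endonuclease gene Fen1 (1.63, SE 0.19, adjusted p = 0.00125). In the second, Mcm5 and Mcm7, which encode subunits of the replication helicase, had 2.07 (SE 0.33, edgeR adjusted p = 0.00281) and 1.03 (SE 0.17, adjusted p = 0.00286). In tdTomato-positive against Rspo1 tdTomato-negative cells 10 of 25 were higher, where 14.6% of all genes tested were, and 0 lower (median 0.49). After the GC and length correction 5 were called. The count was 5 without the tdTomato-positive library of passage 5 or the tdTomato-negative library of passage 6 or 10, and 6 without the tdTomato-positive library of passage 10.

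Target genes of B-MYB and FOXM1 in G2 and mitosis were higher in tdTomato-positive cells. All 20 were higher in tdTomato-positive than in untreated cells (median 2.85), where 3.07% of all genes tested were. Leading were Aurkb (3.26, SE 0.44, edgeR adjusted p = 0.00234), Bub1 (3.18, SE 0.44, adjusted p = 0.00255) and Birc5 (3.14, SE 0.44, adjusted p = 0.00264), genes of the mitotic spindle and its checkpoint, and the mitotic kinase gene Cdk1 (2.55, SE 0.33, adjusted p = 0.00171). Between the Rspo1 fractions 11 of 20 were higher, where 14.6% of all genes tested were, and 0 lower (median 1.39), and 20 with passage as a block. The smallest adjusted p belonged to Kif23, the gene of a cytokinesis kinesin (1.85, SE 0.27, edgeR adjusted p = 0.00213), followed by the kinetochore genes Cenpe (3.16, SE 0.52, adjusted p = 0.00322) and Cenpf (3.11, SE 0.55, adjusted p = 0.00456). This count was 6 without the tdTomato-negative library of passage 5 or 10 or the tdTomato-positive library of passage 6, and 7 without the tdTomato-positive library of passage 10. In tdTomato-negative against untreated cells 6 of 20 were higher, where 8% of all genes tested were, and 0 lower (median 1.32), and 17 with passage as a block. The count of 6 was 17 without the untreated library of passage 6. It was 3 without the untreated library of passage 5 or 10 or the tdTomato-negative library of passage 10. The GC and length correction gave 3, block and correction 20, DESeq2 12 and no filter 17. Of the 20 log2 fold changes 18 were above 0, and Kif23 was lowest at -0.76 (adjusted p = 0.0611 by edgeR). Of all 17011 genes tested, the block called 6624 between the Rspo1 fractions and 6039 in tdTomato-negative against untreated cells.

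For the partners of E2F6, 0 of 12 subunit genes of the Polycomb complex PRC1.6 passed the test in tdTomato-positive against untreated cells by edgeR or by DESeq2, and 1 had an unadjusted p under 0.05. Of all genes tested, 3.07% were higher and 2.13% lower there. Between the Rspo1 fractions 5 were higher (Mga, Rnf2, Cbx3, Hdac2 and Rybp) and 1 lower (Ring1), and in tdTomato-negative against untreated cells 2 were higher (Ring1 and Wdr5) and the former 5 lower. Of all genes tested, 14.6% were higher and 9.78% lower between the Rspo1 fractions, so the 1 lower gene was near that share. In tdTomato-negative against untreated cells 8% were higher and 13.9% lower. Ring1 and Wdr5, and Rybp and Hdac2 in 1 comparison each, were named after their values were seen. Mga, the gene of the DNA-binding scaffold of the complex, was at 76.5, 83.2 and 74.8 CPM in untreated cells, at 24.0, 37.8 and 17.0 CPM in Rspo1 tdTomato-negative cells and at 81.2, 73.5 and 64.9 CPM in Rspo1 tdTomato-positive cells. Its tdTomato-negative libraries lay below all others (-1.57 against untreated cells, SE 0.24, edgeR adjusted p = 0.00217). After the GC and length correction 0 of 12 were called between the Rspo1 fractions and 1 of 12 in tdTomato-negative against untreated cells. The latter count was 3 without the untreated library of passage 5, 4 without the tdTomato-negative library of passage 5 and 2 without that of passage 10. Of 7 germ cell genes that E2F6 is known to silence, 4 were found by name in the counts. Stag3 was the 1 that passed the filter, and it was not called. Of 7 multiciliation genes, a programme E2F4 and E2F5 are known to drive, 4 were found by name in the counts. Of these, 2 passed the filter (Foxj1 and Ccdc78) and 0 were called between groups by edgeR, DESeq2 or at an unadjusted p under 0.05. With passage as a block, Foxj1, the gene of a forkhead factor of motile cilia, was lower in all 3 comparisons. It was at 115, 182 and 48.0 CPM in untreated cells, at 89.4, 115 and 41.8 CPM in Rspo1 tdTomato-negative cells and at 61.9, 87.8 and 23.4 CPM in Rspo1 tdTomato-positive cells of passages 5, 6 and 10, so that the groups overlapped but stood in the same order within each passage. In tdTomato-positive against untreated cells the blocked difference was -0.99 (adjusted p = 0.000301 by edgeR, against 0.396 without the block; range over 14 alternatives 0.000203 to 0.782), and Foxj1 was also called with block and correction and with no filter (adjusted p = 0.0358). Between the Rspo1 fractions the blocked difference was -0.59 (adjusted p = 0.00416 by edgeR; 0.525 without the block and 0.146 with block and correction, range over 14 alternatives 0.00416 to 0.883). It was -0.41 in tdTomato-negative against untreated cells (adjusted p = 0.025 by edgeR; 0.562 without the block and 0.00213 with block and correction, range over 14 alternatives 0.00213 to 0.987).

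Passage was compared over the groups, with 3 libraries at each passage. These 3 libraries deviated together and are not independent repeats of a passage. Each passage is also 1 replicate, so passage and replicate cannot be told apart, and the p-values do not measure the spread between repeats of a passage. Between passage 6 and passage 5, 0 of the 9 genes passed the test by edgeR, with log2 fold changes of -0.26 for E2f1 to 0.29 for E2f8, where 2.49% of all genes tested did. Between passage 10 and passage 5, 0 of 9 passed as well, with values of -0.25 for E2f1 to 0.38 for Mybl2, where 9.07% did. At an unadjusted p under 0.05, which 15.4% and 27% of all genes tested reached, the count was also 0 in both comparisons, as it was by DESeq2. The G2 and mitosis genes were at 103, 238 and 133 CPM in sum in untreated cells of passages 5, 6 and 10, at 206, 354 and 310 CPM in Rspo1 tdTomato-negative cells and at 600, 1218 and 786 CPM in Rspo1 tdTomato-positive cells, and passage 6 was highest in each group. Of these 20 genes, 16 were higher at passage 6 than at passage 5 (median log2 fold change 1.25), where 1.16% of all genes tested were higher and 1.33% lower, and Foxm1 was higher as well (0.98, SE 0.16, edgeR adjusted p = 0.0093). Without the untreated or the Rspo1 tdTomato-negative library of passage 5, or the tdTomato-positive library of passage 6, Foxm1 was not called (adjusted p 0.0598 to 0.0773; range over 14 alternatives 3.1e-06 to 0.0773). The count of 16 was 6 without the untreated or the Rspo1 tdTomato-negative library of passage 5, 8 without the tdTomato-positive library of passage 6 and 10 without the tdTomato-positive library of passage 5. All 25 G1/S genes had a log2 fold change below 0 at passage 6, with Rrm2 called (-0.74, SE 0.15, edgeR adjusted p = 0.0328; median of the 25 -0.29). Without the untreated library of passage 6, 8 of these 25 were called, and without that of passage 10, 3. The count was 0 without the passage 5 library of untreated or Rspo1 tdTomato-negative cells, the Rspo1 tdTomato-negative library of passage 6 or the tdTomato-positive library of passage 10. This G1/S count at passage 6 was 3 by DESeq2 and 6 with no filter. At passage 10 against passage 5, 2 of the 25 G1/S genes were lower, Mcm4 (-0.53, adjusted p = 0.0304) and Mcm6 (-0.57, adjusted p = 0.0286), and 0 higher by edgeR (median -0.43), where 4.5% of all genes tested were lower and 4.57% higher. In that comparison 4 of the 20 mitosis genes were higher, Ccnb2, Cdc20, Cenpf and Birc5 (1.13, 0.89, 0.81 and 0.67, adjusted p 0.0102 to 0.0376 by edgeR), and 0 lower (median 0.46). The G1/S count of 2 was 9 by DESeq2, 12 with no filter, 4 after the GC and length correction, 11 and 9 without the untreated or the Rspo1 tdTomato-negative library of passage 6, 1 without the Rspo1 tdTomato-negative library of passage 10, and 0 without any 1 library of passage 5 or the untreated or tdTomato-positive library of passage 10. The mitosis count of 4 was 8 with no filter and 10 without the untreated library of passage 6. It was 0 without the untreated or Rspo1 tdTomato-negative library of passage 5, 1 without the Rspo1 tdTomato-negative library of passage 10, and 2 without the tdTomato-positive library of passage 5 or the untreated or tdTomato-positive library of passage 10. Whether Mybl2 and the mitosis genes differed in their passage response was not tested. Immediate early and heat shock genes, which respond to dissociation, moved with passage too. Of 9 such genes 4 (Fos, Fosb, Egr1 and Jun) were lower at passage 6 than at passage 5 (median -0.67), where 1.33% of all genes tested were. At passage 10 against passage 5, 5 of 9 were lower and 0 higher (median -0.90), where 4.5% of all genes tested were lower. The summed level of the 9 dissociation genes was 611 to 1110 CPM in untreated, 625 to 885 in Rspo1 tdTomato-negative and 758 to 1766 in Rspo1 tdTomato-positive cells. In tdTomato-positive against untreated cells 1 of 9 was lower, Hspa1b, and 0 higher, where 2.13% and 3.07% of all genes tested were. Of these 9 log2 fold changes 6 were above 0. Between the Rspo1 fractions 2 of 9 were higher, Fos and Fosb (1.80 and 3.39, adjusted p = 0.0307 and 0.018 by edgeR), where 14.6% of all genes tested were. In untreated, Rspo1 tdTomato-negative and Rspo1 tdTomato-positive cells Fos had group means of 109, 103 and 358 CPM. Fosb had 5.09, 4.85 and 51.5 CPM in the same order. The part of these genes in the other differences was not tested.

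**Figure D4:**
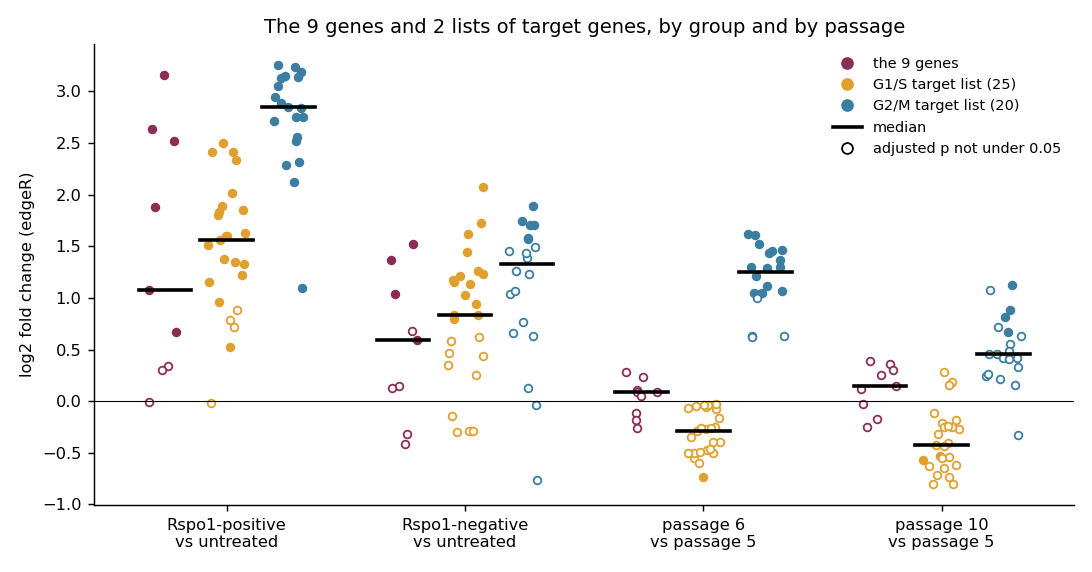
Log2 fold change from edgeR (vertical axis) of the 9 genes, the 25 G1/S target genes and the 20 G2 and mitosis target genes, in 2 comparisons between groups and 2 between passages; each point is a gene, filled where the adjusted p is under 0.05, and bars are medians. At passage 6 the mitosis genes lie above 0 and the G1/S genes below it, and none of the 9 genes is called in either comparison of passages.

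The genes whose pattern was most like that of Mybl2 were found by the root mean square difference of log2 CPM over the 9 libraries, after each gene's mean was removed, among 11655 genes. They were Cdca5 (0.297), Tiam1 (0.298), Spc24 (0.322), Traip (0.346) and Mcm10 (0.392), where the median over all genes was 1.18. For E2f8 they were Clspn (0.279), Anln (0.309), Plk4 (0.314), Prc1 (0.319) and Stil (0.35), with a median of 1.20. For E2f1 they were Tipin (0.127), Pola2 (0.143), Cyr61 (0.145), Dnmt1 (0.155) and Gmnn (0.163), with a median of 0.556. Among the 9 genes themselves, E2f4 and E2f6 (0.202) and E2f5 and E2f6 (0.202) were closest, the genes that vary least, and among the 3 that vary most E2f7 and E2f8 (0.345) were closer than Mybl2 was to E2f8 (0.533) or E2f7 (0.564). These values describe libraries that share passages and groups.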

How the data were processed

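RNA was sequenced as single-end 75 bp reads from 9 libraries. The submitters' processing notes name Trimmomatic 0.35, FastQC 0.11.2, STAR 2.5.1b, featureCounts, DESeq2 and build GRCm38; the annotation, strand setting and treatment of reads with several matches are not given in the sources used here. The authors deposited raw counts and FPKM values per gene, and tables of log2 fold changes with p-values. Counts entered every test across genes; the deposited FPKM served for comparing levels of genes and for the shares of the E2f sum, which were compared by exact permutation.

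Counts were analysed with edgeR 4.0.16 (TMM scaling; filterByExpr with a minimum count of 10 and a minimum total of 15; quasi-likelihood F-test; all 9 libraries; Benjamini-Hochberg adjustment over 17011 genes; threshold 0.05), and the script was tested on simulated data. SEs are the log2 fold change divided by the square root of F. CPM uses TMM-scaled totals. Passages were tested in a fit with group. Alternatives were DESeq2 1.42.0, 2 other scalings, no filter, a GC and length offset, passage as a block, the 6 libraries compared alone, and each library left out. Replicates 1, 2 and 3 are passages 5, 6 and 10, and libraries of the same passage deviated together (correlations of 0.123 to 0.573 in 9 pairs, against -0.476 to 0.0826 in 18 pairs of different passages), so passage pairs them. The main fit of groups did not use this pairing, and the block did.

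The 9 genes and the lists of partners, targets and markers were chosen with earlier results of these data known. Named were the 9 genes, Axin2 and, per list and group comparison, up to 4 called genes with the smallest adjusted p; genes named for passage were chosen after their values were seen. The core TCCCGC was added to the promoter search after its first result. Copies were sought with blastn 2.17.0 at 95% identity over 75 bases.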

Additional observations from a re-analysis of the deposited data

How the results depend on the processing

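Counts of all genes called moved most with the settings. In tdTomato-positive against untreated cells 886 genes were called, 1446 with no filter, 1506 by DESeq2, 2247 with passage as a replicate block, 2751 with block and GC and length offset, and 390 to 899 with 1 library left out. Between the Rspo1 fractions 4141 were called, 1436 with the offset, 6624 with the block and 2061 to 4068 with 1 library left out. In tdTomato-negative against untreated cells 3724 were called, 1329 with the offset, 2299 with the 6 libraries alone, 6039 with the block and 1800 to 3772 with 1 library left out. At passage 6, 423 were called, 1193 with no filter, 851 by DESeq2 and 105 to 846 with 1 library left out; at passage 10, 1543, 2784 with no filter and 405 to 3594. The share of calls that were higher moved from 59.8% to 40.7% between the Rspo1 fractions and from 36.5% to 50.6% in tdTomato-negative against untreated cells with the offset, and from 36.5% to 49.5% there with upper-quartile scaling. In tdTomato-positive against untreated cells it moved from 59% to 48.7% with the block and to 40.2% with block and offset.

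Of the 9 genes, 5 to 6 (tdTomato-positive against untreated), 3 to 4 (between the Rspo1 fractions) and 1 to 4 (tdTomato-negative against untreated) were called with 1 library left out, and 1, Mybl2, in the last comparison with the 6 libraries alone (adjusted p = 0.0737 for E2f1, 0.0621 for E2f2 and 0.0589 for E2f7). With no filter, E2f3 in the first (adjusted p = 0.0513) and E2f2 in the second (0.074) were not called. The block gave 6, 6 and 6, and block and offset 6, 7 and 3. With 1 library left out of an arm, the remaining 2 share the spread of all groups. Among the 9 genes, directions turned only for differences that were not called. E2f5 turned in tdTomato-positive against untreated cells (0.0166 with no filter, 0.0197 with upper-quartile scaling, 0.00349 with the 6 libraries, -0.121 to 0.0757 with 1 left out). E2f4 turned in tdTomato-negative against untreated cells (-0.168 with the offset, -0.171 with block and offset). At passage 6, E2f7 turned with the offset (-0.00915) and with 1 left out (-0.242 to 0.281). With 1 left out, E2f4 (-0.0516 to 0.295) and Mybl2 (0.238 in the main fit, -0.0346 to 0.48) turned there too. E2f6 turned at passage 10 (-0.109 to 0.0223 with 1 left out). Cdkn1b, called at -0.49 in tdTomato-negative against untreated cells, had 0.0409 with the offset and 0.0424 with block and offset. The cause of these changes was not tested.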
